A study of Mus musculus with 23 samples.

Results

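The genes described here are 59 genes of the cell division cycle, measured in the liver of 23 male mice by Agilent 1-colour arrays, with 1 array per mouse. They were taken by name from a list of cyclins, replication factors and mitotic proteins, and all 59 were found among the 37074 gene names of the array. Each gene was read from its brightest probe. By role, 7 genes act in the control of the passage from G1 to S phase, 15 in DNA replication and nucleotide supply, and 37 in the G2 phase, mitosis and cytokinesis, here called mitotic genes. The study asked what the PXR ligand pregnenolone 16α-carbonitrile (PCN) does in wild-type (WT) liver and in liver without PXR, a nuclear receptor that senses foreign compounds.

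All mice were males on the C57Bl6/J background. WT CONT (n = 6) and Pxr-/- CONT (n = 6) received corn oil, and WT PCN (n = 5) and Pxr-/- PCN (n = 6) received PCN in corn oil at 100 mg/kg, by daily intraperitoneal injection for 4 days. Livers were taken at ZT6, 6 h after the last injection, which the labels call the fed state and the study a semi-fasted one. WT mice were purchased at 6 weeks of age, whereas Pxr-/- mice came from a colony bred in the facility, and all were acclimatized for 2 weeks, so genotype and colony cannot be told apart. Pxr-/- denotes the loss of both copies of the receptor gene.

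An adult liver cell rarely divides. When a cell enters the cycle, cyclin D and cyclin E with their kinases release E2F factors, which switch on the genes of DNA replication. Later, the complex of B-MYB and FOXM1 with the MuvB core switches on the genes of G2 and mitosis. Transcripts of this second wave are therefore most abundant late in the cycle, while many replication genes are also transcribed at some level outside S phase. Liver is well known to regrow after tissue loss, and several ligands of nuclear receptors enlarge the rodent liver.

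Promoters of late cell cycle genes are known for a CHR element with a nearby CCAAT box, and those of replication genes for E2F sites. The promoter table (RefSeq, GRCm38.p6) held 48 of the 59 genes, and the 250 bases before the first listed start were searched on both strands. A CHR (TTTGAA or TTTAAA) was found in 14 of 31 mitotic genes (45.2%), in 3 of 12 replication genes (25%) and in 2 of 5 G1/S genes (40%), beside 25.5% of all 27025 promoters. A CCAAT box (CCAAT) was found in 24 of 31 mitotic and 9 of 12 replication genes, beside 34.5% of all promoters. An E2F site (TTTCGCGC or TTTGGCGC) was found in 3 of the 48 genes, beside 0.674% of all promoters, and a TATA box (TATAAA) in 0 of 48, beside 13% of all. The stretches of 150 bases before the start are given here for the 2 replication genes and the 2 mitotic genes with the largest called rise after PCN in WT mice, because the results turn on these classes. Capitals mark the CCAAT boxes and the single CHR, TTTGAA, which lies in *Cdc20* between the 2 CCAAT boxes. The letters describe these windows only.
Uhrf1, chr17:56303187-56303336, + strand: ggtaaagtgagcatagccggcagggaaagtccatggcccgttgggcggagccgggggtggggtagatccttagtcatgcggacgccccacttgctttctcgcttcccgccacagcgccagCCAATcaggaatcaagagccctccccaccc
Rrm2, chr12:24708104-24708253, + strand: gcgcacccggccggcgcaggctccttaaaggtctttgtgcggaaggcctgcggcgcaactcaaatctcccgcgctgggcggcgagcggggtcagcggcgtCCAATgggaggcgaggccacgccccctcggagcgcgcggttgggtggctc
Prc1, chr7:80294301-80294450, + strand: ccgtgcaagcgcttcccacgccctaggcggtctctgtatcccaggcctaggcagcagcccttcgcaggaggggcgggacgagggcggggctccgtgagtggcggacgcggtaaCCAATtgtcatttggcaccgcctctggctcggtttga
Cdc20, chr4:118437344-118437493, - strand: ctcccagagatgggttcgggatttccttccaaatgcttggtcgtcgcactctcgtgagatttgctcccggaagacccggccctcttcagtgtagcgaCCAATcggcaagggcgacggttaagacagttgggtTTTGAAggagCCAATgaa

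Arrays detected between 29510 and 33321 of 56605 probes well above background, and 21047 genes were tested. All 8 hepatocyte markers, such as *Alb* and *Ttr*, were well above background on every array. After PCN, 1 was called lower in WT mice and 1 higher in Pxr-/- mice (limma), and 2 were higher in Pxr-/- PCN than in WT PCN. Their summed log2 signal was 20.29 to 20.56 in WT CONT, 20.22 to 20.35 in WT PCN, 20.40 to 20.48 in Pxr-/- CONT and 20.38 to 20.46 in Pxr-/- PCN. The probe for the deleted gene, *Nr1i2*, was well above background on all 23 arrays and overlapped between genotypes (10.63 to 12.15 in WT CONT and 10.16 to 12.08 in Pxr-/- CONT, log2 signal), so that it checks no label. *Cyp3a11*, the classical PXR target, gave a log2 signal between 16.90 and 17.29 in WT PCN and between 12.83 and 15.13 in all other mice. Before normalization, WT PCN arrays were the brightest, with a mean log2 signal of 8.65 ± 0.09 (SD, n = 5) beside 8.51 ± 0.12 in WT CONT, 8.41 ± 0.14 in Pxr-/- CONT and 8.45 ± 0.07 in Pxr-/- PCN (n = 6 each). The part of this in the results was not tested.

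Of the 59 genes, 55 passed the filter on dim probes, and 42 were well above background on all 23 arrays. Those that did not pass were *Ccne2* (cyclin E2), above background on no array, *Ttk* (a spindle checkpoint kinase) on 1, *Ndc80* (an outer kinetochore protein) on 3 and *Kif11* (a spindle motor) on 4. They are not covered by the counts below. A dim mitotic gene could pass through the group in which it was high, so counts over the passed genes are descriptions.

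PCN raised mitotic transcripts in WT liver. Of 55 genes, 27 were called higher in WT PCN than in WT CONT (limma, adjusted p of at most 0.05 and fold above 1.5), and 0 were called lower, while over all genes tested 3.78% were called higher and 2.39% lower. The called genes were 25 of 34 mitotic genes and 2 of 15 replication genes, and none of the 6 G1/S genes was among them. The median change was 0.96 on the log2 scale for mitotic genes, 0.29 for replication genes and 0.04 for G1/S genes, beside -0.02 for all genes. In bulk liver, more cells in cycle and more RNA per cycling cell cannot be told apart.

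**Figure D1:**
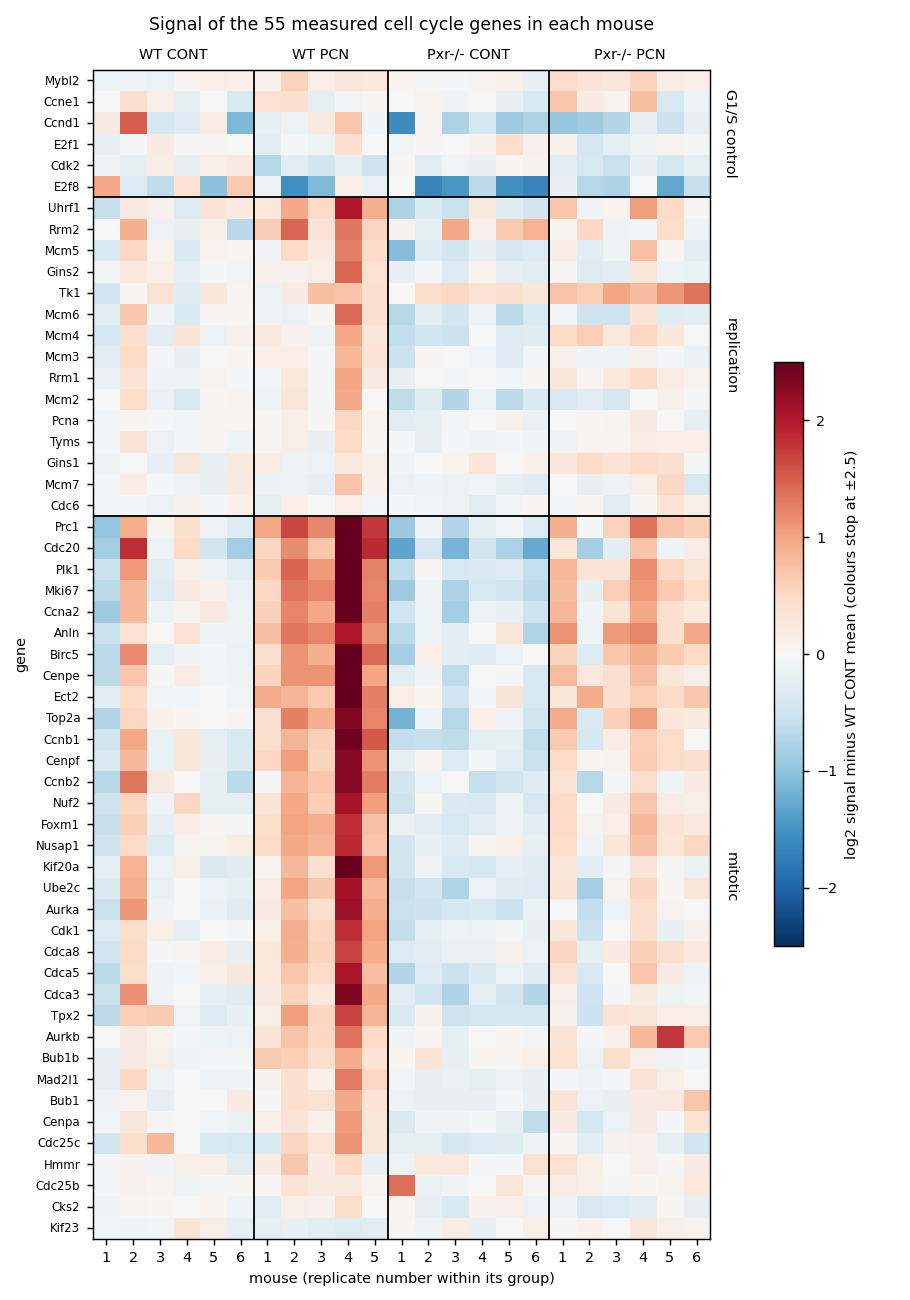
Colour map of the log2 signal of each of the 55 measured genes (one line per gene, grouped by class and ordered by the change in WT mice) in each of the 23 mice (one column per mouse), as the difference from the WT CONT mean. Red runs through the mitotic block in all 5 WT PCN mice and is deepest in WT PCN replicate 4, in which 33 of 34 mitotic genes lie above the highest WT CONT mouse.

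The largest rise was that of *Prc1*, which bundles the microtubules of the spindle midzone. Its probe lies on chromosome 7, from 87461048 to 87461107 (mm9). The log2 signal of *Prc1* was 7.35, 8.05, 7.57, 9.34 and 8.15 in the 5 WT PCN mice and ran from 5.42 to 7.29, with a median of 6.35, in WT CONT. Every WT PCN mouse was above every WT CONT mouse, and the change was 1.72 ± 0.32 (SE, adjusted p = 6.34e-04), a 3.29-fold rise. The other passed probe of *Prc1*, well above background on 9 arrays, was called with a smaller change of 0.91 (limma, adjusted p = 0.0023). *Cdc20*, the activator of the anaphase-promoting complex, has its probe on chromosome 4, from 118105534 to 118105593 (mm9), and read 7.99, 8.64, 8.14, 11.00 and 9.32 in WT PCN beside 6.58 to 9.31 (median 7.16) in WT CONT. Its groups overlapped, since WT CONT replicate 2 was at the height of the second highest WT PCN mouse, and the change was 1.56 ± 0.48 (adjusted p = 0.0227).

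*Plk1* encodes a kinase that drives entry into mitosis. Its log2 signal was 7.32, 8.10, 7.72, 9.23 and 7.90 in WT PCN and 6.10 to 7.75 (median 6.46) in WT CONT, a change of 1.41 ± 0.28 (adjusted p = 0.0011). *Mki67*, which encodes the proliferation antigen Ki-67, read 7.95, 8.76, 8.64, 9.97 and 8.65 in WT PCN and 6.75 to 8.25 (median 7.39) in WT CONT, a change of 1.37 ± 0.29 (adjusted p = 0.0016). For *Plk1* 2 WT PCN mice and for *Mki67* 1 lay within the range of the controls, and the others lay above it.

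The mitotic kinase and its cyclin rose together. *Cdk1* was at 5.84, 6.59, 6.22, 7.55 and 6.69 in WT PCN and at 5.37 to 6.12 (median 5.68) in WT CONT, a 1.85-fold rise (log2 change 0.89 ± 0.22, adjusted p = 0.0061). *Ccnb1*, its cyclin B1 partner, was at 6.49, 6.90, 6.65, 8.49 and 7.58 beside 5.57 to 7.02 (median 5.85), a 2.24-fold rise (1.16 ± 0.30, adjusted p = 0.00705). *Ccna2* (cyclin A2) changed by 1.32 and *Ccnb2* (cyclin B2) by 1.01, and both were called. *Foxm1*, a transcription factor of the late wave, was at 6.14, 6.68, 6.58, 7.50 and 6.40 beside 5.10 to 6.27 (median 5.66), a log2 change of 1.00 ± 0.19 (adjusted p = 8.22e-04). For *Cdk1*, *Ccnb1* and *Foxm1* alike, the highest WT CONT value lay within the WT PCN range.

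Other called genes act at the successive steps of mitosis. At the kinetochore and centromere they included *Cenpe*, a motor that carries chromosomes to the spindle equator (1.26), *Cenpf* (1.1) and *Nuf2* (1.01). Among the chromosomal passenger proteins, which correct chromosome attachment, *Birc5* (1.28), *Cdca8* (0.87) and *Aurkb* (0.67) rose. For spindle assembly *Aurka* (0.89), *Tpx2* (0.84) and *Nusap1* (0.98) rose, and for the untangling of chromosomes *Top2a* (1.22). For cytokinesis, *Ect2* (1.26), which activates the contractile ring, the ring scaffold *Anln* (1.29) and the motor *Kif20a* (0.97) rose. *Anln* read 7.26, 7.85, 7.73, 8.53 and 7.61 in WT PCN, all above the 5.96 to 6.90 (median 6.46) of WT CONT. *Kif20a* read 6.25, 6.97, 6.57, 8.62 and 7.24 beside 5.80 to 7.02 (median 5.98), and the groups overlapped. The remaining called genes were *Ube2c*, the ubiquitin carrier of the anaphase-promoting complex (0.95), *Cdca5*, which holds sister chromatids together (0.85), and *Cdca3* (0.85). Some of these probes were dim in the controls, and of the 6 WT CONT arrays *Aurkb* was well above background on 1, *Cenpf* on 2, *Nuf2* on 3, *Nusap1* and *Tpx2* on 4 and *Cdk1* and *Foxm1* on 5.

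Of the 9 mitotic genes that were not called, 3 checkpoint genes had an adjusted p below the threshold but a fold under 1.5. These were *Mad2l1* (0.50, adjusted p = 0.0297), *Bub1b* and *Bub1*. The last 2 were above background on no WT CONT array, so they had only a bound there, of at least 1.42-fold for *Bub1b* (adjusted p = 0.0014, above background in 4 of 5 WT PCN mice) and at least 1.20-fold for *Bub1* (adjusted p = 0.0375, in 3 of 5). The centromeric histone *Cenpa* (0.39), *Cdc25b* (0.19), *Cdc25c* (0.37), *Hmmr* (0.29) and *Cks2* (0.07) did not pass the test. *Kif23*, a midzone motor, was at 6.37, 6.41, 6.34, 6.25 and 6.31 in WT PCN and 6.34 to 6.91 in WT CONT, a change of -0.25 ± 0.09 (adjusted p = 0.0366) under the fold threshold. The other probes of *Kif23* that passed went the opposite way (0.58 and 0.43). Likewise, 1 other probe of *Hmmr* was called, with a change of 1.1 (adjusted p = 0.0062). Over all 20 genes with another passed probe, 23 of 27 such probes had the sign of the probe used, as did all 9 probes of genes that were called.

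Replication genes moved less. *Uhrf1*, which carries DNA methylation over to the new strand (probe on chromosome 17, 56462770 to 56462829, mm9), was at 7.44, 8.13, 7.68, 9.17 and 8.08 in WT PCN and at 6.60 to 7.50 (median 7.34) in WT CONT, a change of 0.92 ± 0.26 (adjusted p = 0.0142). *Rrm2*, the S-phase subunit of ribonucleotide reductase (chromosome 12, 25398824 to 25398883, mm9), was at 9.86, 10.68, 9.60, 10.56 and 9.77 beside 8.54 to 10.12 (median 9.16), a change of 0.88 ± 0.25 (adjusted p = 0.0137). Both genes rose, and the groups overlapped by 1 WT PCN mouse for *Uhrf1* and by a single high WT CONT mouse for *Rrm2*.

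The replicative helicase is a ring of the MCM proteins. *Mcm5* was at 7.33, 7.92, 7.61, 8.68 and 7.89 in WT PCN and 7.01 to 7.93 (median 7.49) in WT CONT (0.48 ± 0.22, adjusted p = 0.127), and *Mcm2*, *Mcm3*, *Mcm4*, *Mcm6* and *Mcm7* differed by 0.05 to 0.32, none passing the test. *Pcna*, the sliding clamp of the DNA polymerases, was at 11.32, 11.40, 11.27, 11.77 and 11.35 beside 11.17 to 11.32 (median 11.25), a difference of 0.17 ± 0.09 (adjusted p = 0.181). In both genes WT PCN replicate 4 alone stood well clear of the control range. *Tk1*, the thymidine kinase of the salvage pathway, was at 10.63, 10.96, 11.52, 11.46 and 11.16 beside 10.27 to 11.15 (median 10.81), a difference of 0.39 ± 0.17 (adjusted p = 0.103). The fitted differences of all 15 replication genes were above 0, from 0.01 for the loading factor *Cdc6* to 0.92, and 13 did not pass the test.

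**Figure D2:**
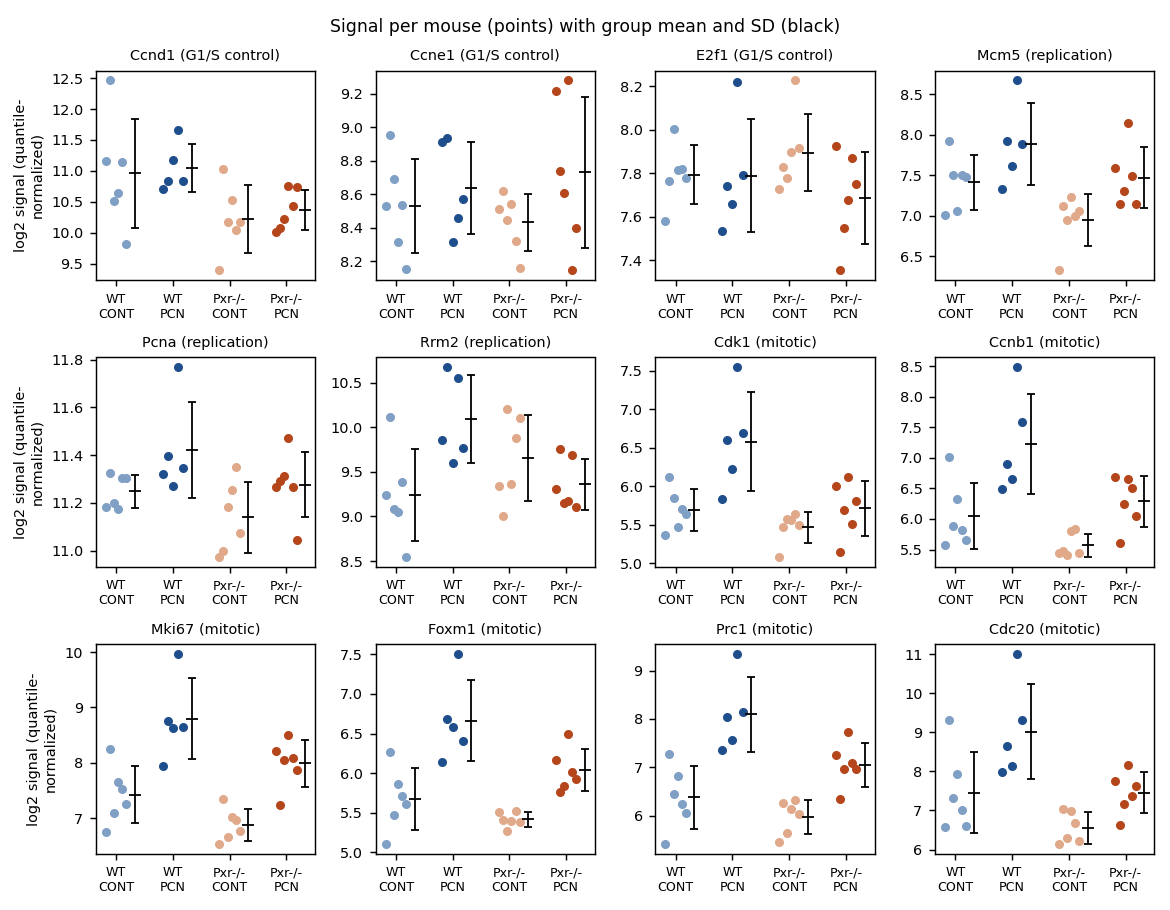
Log2 signal per mouse (points, with replicates from left to right) in the 4 groups for 12 of the genes, with the group mean and SD in black at the right of each group and a separate axis range per gene. *Prc1* and *Mki67* sit higher in WT PCN than in WT CONT, while *Ccnd1*, *Ccne1* and *E2f1* overlap throughout, and WT PCN replicate 4 is the highest point for *Cdk1*, *Ccnb1*, *Pcna* and *Cdc20*.

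The G1/S genes had no common direction. *Ccnd1* (cyclin D1) was at 10.71, 10.84, 11.18, 11.65 and 10.84 in WT PCN and had the widest spread of the anchors in WT CONT, from 9.83 to 12.47 (median 10.89; difference 0.09 ± 0.33, adjusted p = 0.885). *Ccne1* (cyclin E1) was at 8.91, 8.93, 8.31, 8.46 and 8.57 beside 8.16 to 8.95 (median 8.53; 0.10 ± 0.18, adjusted p = 0.736). *E2f1* was at 7.53, 7.74, 7.66, 8.22 and 7.79 beside 7.58 to 8.0 (median 7.80; -0.01 ± 0.12, adjusted p = 0.971). None of these 3 genes separated the groups.

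*Cdk2*, the kinase partner of cyclin E, was lower in WT PCN by 0.44 ± 0.10 on the log2 scale with an adjusted p of 0.0038, and *Mybl2*, which encodes B-MYB, was higher by 0.29 ± 0.09 (adjusted p = 0.0281). Both were under the fold threshold. *E2f8*, an E2F repressor, differed by -0.58 ± 0.37 (adjusted p = 0.283). Its other passed probe differed by -0.57 (limma, adjusted p = 0.0036), under the fold threshold. In Pxr-/- mice that probe differed by -0.11 and the probe used by 0.57, and neither was called.

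Mice of a group differed in how far the mitotic genes went. Relative to the WT CONT mean, the median over the 34 mitotic genes was 0.30, 0.87, 0.56, 2.05 and 0.93 in the 5 WT PCN mice and ran from -0.50 to 0.53 in WT CONT. The highest WT CONT value was that of replicate 2 and the lowest that of replicate 1. WT PCN replicate 4 also had the highest medians of replication (0.96) and G1/S genes (0.23). Without that mouse, 19 genes were called higher in WT mice, all of them among the 27, of which 17 were mitotic, and the mitotic median was 0.66. Without both WT PCN replicate 4 and WT CONT replicate 2, an alternative chosen after seeing the data, 26 were called.

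**Figure D3:**
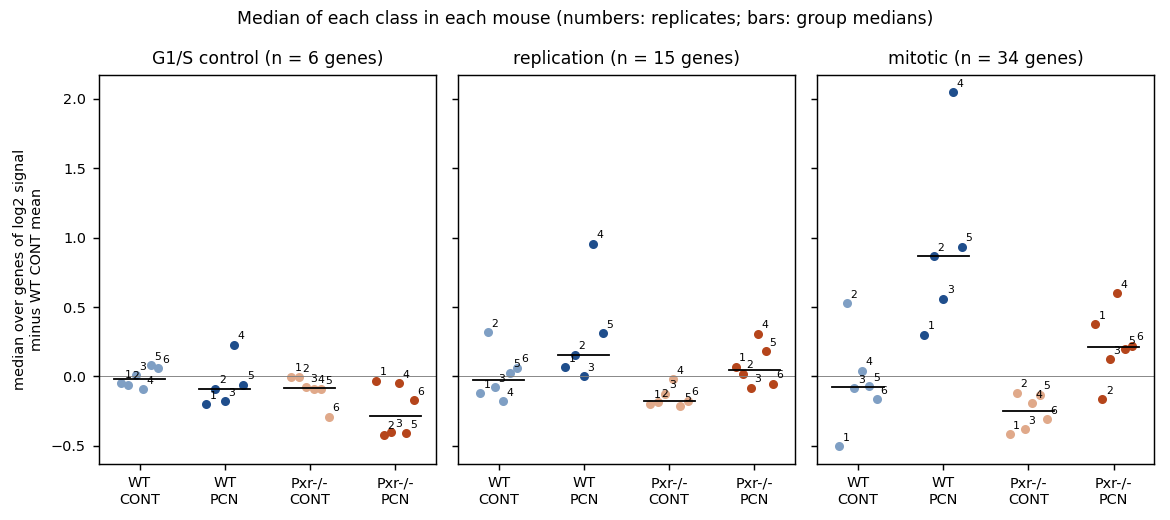
Median over the genes of each class of the log2 signal minus the WT CONT mean, one point per mouse with its replicate number, and group medians as black bars. Mitotic medians reach 2.05 in WT PCN replicate 4 and lie between -0.42 and -0.12 in Pxr-/- CONT, and the G1/S panel stays between -0.42 and 0.23.

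Arrays were washed in 2 batches, each with 3 arrays per group except for 2 WT PCN arrays in the second. Within batch 1, which holds WT PCN replicate 4, 25 genes were called higher in WT mice and the mitotic median was 1.32. Within batch 2, which holds WT CONT replicate 2, 0 genes were called higher, 1 was called lower, and the mitotic median was 0.55, with 45 of 55 differences above 0. Batch 2 held 2 WT PCN mice. Over all 21047 genes tested, 910 were called higher and 622 lower within batch 1, and 385 and 304 within batch 2. With both batches these counts were 796 and 504. With the log2 values that the authors deposited, the median of all genes was shifted by 0.11 in WT mice and 84.3% of the genes called were higher, beside 61.2% as reported here, and 29 of the 55 cell cycle genes were called, with a median of 0.58 relative to that shift.

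PCN also raised some of these genes in mice without PXR. In Pxr-/- PCN, 7 of 55 genes were called higher than in Pxr-/- CONT and 0 lower, beside 1.43% and 0.86% of all genes. The median change was 0.52 for mitotic, 0.21 for replication and 0.22 for G1/S genes. The 6 G1/S changes ran from -0.28 to 0.57, with 4 above 0, and 0 were called. Taken per mouse relative to the WT CONT mean, the G1/S median went the other way. Its group median was -0.29 in Pxr-/- PCN and -0.08 in Pxr-/- CONT. The called genes were *Anln*, *Mki67*, *Prc1*, *Plk1* and *Foxm1*, which were also called in WT mice, and the replication genes *Mcm4* and *Tk1*, which were not. For *Tk1* no passed probe was called in WT mice, and the call in Pxr-/- mice depended on the probe. Another probe changed by 0.58 in WT mice (limma, adjusted p = 0.0108), just under the fold threshold, and by 0.63 in Pxr-/- mice (adjusted p = 0.0162), where it was called. A further probe changed by 0.29 in WT mice (adjusted p = 0.231) and by 0.57 in Pxr-/- mice (adjusted p = 0.0367), under the fold threshold and not called.

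*Mki67* ran from 7.24 to 8.51 (median 8.06) in Pxr-/- PCN and from 6.53 to 7.34 (median 6.87) in Pxr-/- CONT, a change of 1.11 ± 0.27 (adjusted p = 0.018). *Prc1* ran from 6.34 to 7.73 (median 7.03) beside 5.45 to 6.32 (median 6.09), so that the groups did not overlap (1.08 ± 0.31, adjusted p = 0.0371). The other passed probe of *Prc1* changed by 0.60 (limma, adjusted p = 0.0631) and was not called. *Anln* ran from 6.38 to 7.73 (median 7.51) beside 5.76 to 6.82 (median 6.29), a change of 1.03 ± 0.24 (adjusted p = 0.0131). For each of these 3 genes the highest Pxr-/- PCN mouse was below the highest WT PCN mouse.

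*Plk1* (6.96 to 7.82 beside 6.02 to 6.68, change 0.96 ± 0.27, adjusted p = 0.0339) and *Foxm1* (5.77 to 6.49 beside 5.27 to 5.53, change 0.62 ± 0.18, adjusted p = 0.0476) rose without overlap of the groups. *Foxm1* was above background in 2 of 6 Pxr-/- CONT mice and in all 6 Pxr-/- PCN mice, and its call held in 6 of the 23 fits that left out 1 mouse. *Cdk1* (5.15 to 6.12 beside 5.08 to 5.64, 0.24 ± 0.21, adjusted p = 0.549), *Ccnb1* (5.61 to 6.69 beside 5.42 to 5.83, 0.72 ± 0.28, adjusted p = 0.131) and *Cdc20* (6.64 to 8.17 beside 6.14 to 7.04, 0.90 ± 0.46, adjusted p = 0.262) did not pass the test.

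*Mcm4* ran from 9.04 to 9.66 (median 9.44) in Pxr-/- PCN and from 8.43 to 9.04 (median 8.65) in Pxr-/- CONT (0.74 ± 0.17, adjusted p = 0.0108). *Tk1* ran from 11.38 to 12.12 (median 11.65) beside 10.77 to 11.27 (median 11.15; 0.59 ± 0.16, adjusted p = 0.0316). Neither gene overlapped between the groups, although *Mcm4* touched at 9.04. In Pxr-/- PCN minus WT PCN, *Mcm4* differed by 0.04 ± 0.17 (adjusted p = 0.922) and *Tk1* by 0.54 ± 0.17 (adjusted p = 0.0541). *Rrm2* ran from 9.10 to 9.75 (median 9.24) beside 9.01 to 10.21 (median 9.62; -0.29 ± 0.24, adjusted p = 0.524). *Uhrf1* (0.75 ± 0.25, adjusted p = 0.0718), *Mcm5* (0.53 ± 0.21, adjusted p = 0.142) and *Pcna* (0.14 ± 0.09, adjusted p = 0.38) missed the threshold. Of the G1/S anchors, *Ccnd1* differed by 0.15, *Ccne1* by 0.30 and *E2f1* by -0.21, none passing the test.

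Genes without overlap between PCN and control mice were counted as a description. In WT mice the lowest PCN mouse was above the highest control mouse for 5 of 55 genes (*Prc1*, *Anln*, *Ect2*, *Aurkb* and *Bub1b*), beside 5.85% of all genes. In Pxr-/- mice this held for 9 genes (*Mcm4*, *Tk1*, *Rrm1*, *Mybl2*, *Ccna2*, *Plk1*, *Prc1*, *Cenpe* and *Foxm1*), beside 1.57% of all genes. The control mice of the Pxr-/- line lay closer together, with an SD of 0.13 of the mitotic median beside 0.33 in WT CONT. Whether this spread bears on the counts was not tested, and not all of the genes counted were mitotic. Leaving out 1 mouse at a time, the Pxr-/- count of called genes ran from 2, without Pxr-/- PCN replicate 4, to 12, without WT PCN replicate 4, which enters that comparison only through the shared spread and the batch term. Of the 7 genes, *Mcm4* and *Anln* were called in all 23 such fits, *Mki67* in 22, *Tk1* in 16, *Plk1* and *Prc1* in 15 each and *Foxm1* in 6. Within each washing batch 0 of the 55 genes were called, and the mitotic median was 0.52 in batch 1 and 0.47 in batch 2. Over all 21047 genes tested, 36 were called higher and 19 lower within batch 1, and 49 and 44 within batch 2. These counts were 300 and 181 with all mice, 197 and 114 without Pxr-/- PCN replicate 4, and 315 and 183 without WT PCN replicate 4.

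**Figure D4:**
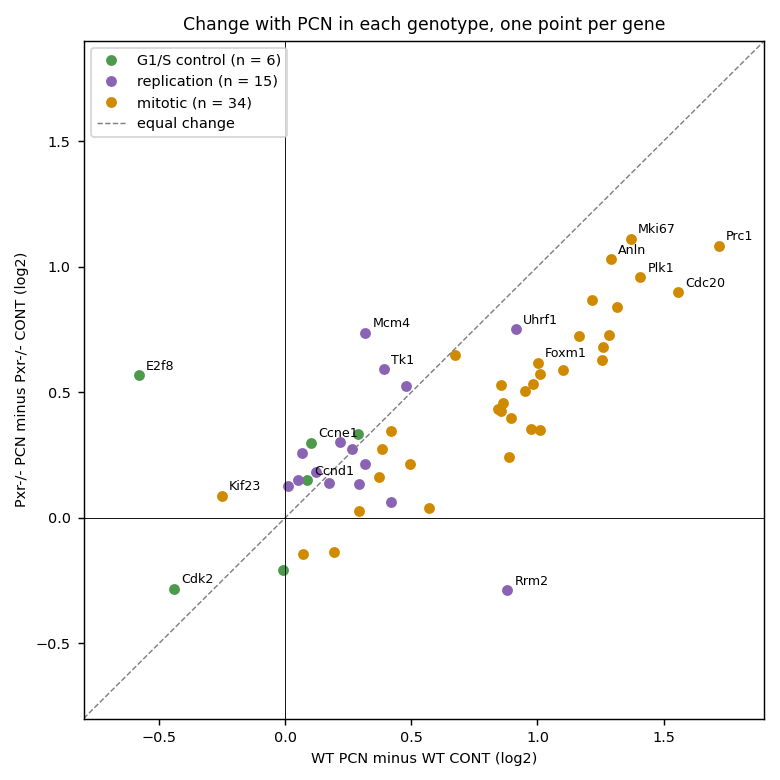
Change with PCN in WT mice (x axis, log2) against the change in Pxr-/- mice (y axis, log2), one point per gene and coloured by class, with the line of equal change dashed. Of 34 mitotic genes, 33 lie below the line, whereas 9 of 15 replication genes lie above it. *Rrm2* is at 0.88 and -0.29.

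The difference between the genotypes was tested as an interaction, the change in WT minus the change in Pxr-/- mice. For this, 0 of 55 genes were called (limma), beside 0.808% of all genes higher and 0.242% lower, and 5 genes (9.09%) had an unadjusted p below 0.05, a smaller share than the 15.1% of all genes. The median difference was 0.43 for mitotic genes, with 33 of 34 above 0, and -0.05 for replication genes, with 6 of 15 above 0. The largest was *Rrm2*, at 1.17 ± 0.34 (adjusted p = 0.0974), which was called without WT CONT replicate 2 (1.32, adjusted p = 0.0382) or without WT PCN replicate 3 (1.35, adjusted p = 0.0497), followed in size by *E2f8* at -1.15 ± 0.51 (adjusted p = 0.301). The *E2f8* value is that of the probe used, and its other passed probe had the opposite sign in Pxr-/- mice. For *Mki67* the difference was 0.26 ± 0.40, for *Prc1* 0.64 ± 0.45, for *Cdk1* 0.64 ± 0.31 and for *Foxm1* 0.38 ± 0.27, none of which passed the test. The mitotic median of the difference was 0.69 within batch 1 and 0.06 within batch 2, and 0.17 without WT PCN replicate 4.

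Control mice of the 2 genotypes were compared to see where the genes started. Of 55 genes, 0 were called (limma; background 0.228% higher and 0.0808% lower), and 6 (10.9%) had an unadjusted p below 0.05, near the 12.2% of all genes. As a description, 47 of 55 were lower in Pxr-/- CONT, with a median difference of -0.23, beside -0.005 for all genes. Relative to the median of all genes it was -0.23 with all mice and -0.11 without WT CONT replicate 2. The 6 with an unadjusted p below 0.05 were *Ccnd1* (-0.74 ± 0.32, adjusted p = 0.386), *E2f8* (-1.16 ± 0.35, adjusted p = 0.193), *Mcm2* (-0.47), *Mcm4* (-0.38), *Mcm5* (-0.47) and *Tk1* (0.34), which alone was higher. This comparison shares its WT CONT mice with the change in WT mice and its Pxr-/- CONT mice with the change in Pxr-/- mice.

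After PCN, 6 genes were called lower in Pxr-/- PCN than in WT PCN and 0 higher, beside 1.36% and 0.732% of all genes, and all 6 were mitotic. They were *Cdc20* (-1.56 ± 0.48, adjusted p = 0.048), *Prc1* (-1.04 ± 0.32, adjusted p = 0.0496), *Kif20a* (-0.94 ± 0.29, adjusted p = 0.0463), *Aurka* (-0.93 ± 0.28), *Cdk1* (-0.87 ± 0.22, adjusted p = 0.0195) and *Foxm1* (-0.64 ± 0.19, adjusted p = 0.0451). The values of *Kif20a* ran from 5.90 to 6.48 in Pxr-/- PCN, and those of *Cdk1* from 5.15 to 6.12, so both groups met the lowest WT PCN mice. These calls were not stable, since in 12 of the 23 fits that left out 1 mouse a single gene was called lower. Without WT PCN replicate 4, 0 were called lower and 1 gene was called higher, without WT PCN replicate 1 there were 21, without WT CONT replicate 2 there were 16, and within either washing batch 0 were called. Over all 21047 genes tested, 188 were called lower within batch 1 and 100 within batch 2, beside 286 with all mice and 229 without WT PCN replicate 4. With the deposited values 29 of the cell cycle genes were called lower. There the median of all genes was shifted by -0.19 and 5.03% of all genes called were higher, beside 35% as reported here.

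**Figure D5:**
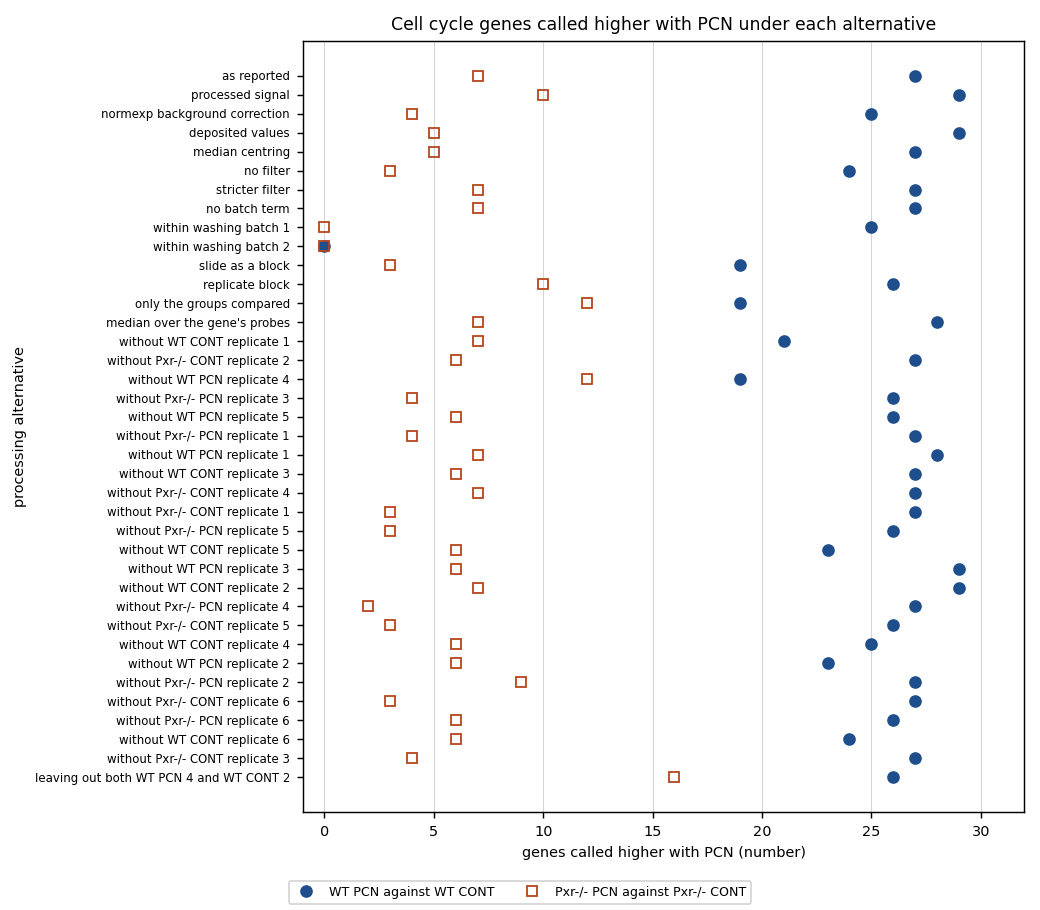
Number of the cell cycle genes called higher with PCN in WT mice (filled circles) and in Pxr-/- mice (open squares), as reported and under each processing alternative or with 1 mouse left out. The WT count stays between 19 and 29 in all but the second washing batch taken alone, where it is 0, and the Pxr-/- count runs from 0 to 16.

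Other genes of the cycle were read from lists beside the 59. Of 24 measured other mitotic genes, 11 rose in WT mice, among them *Pbk*, a mitotic kinase (1.13 ± 0.24, adjusted p = 0.00161), the condensin subunit *Ncapg* (1.08), *Racgap1*, a binding partner of *Ect2* (1.08), and separase, *Espl1* (0.89), and 1 fell (*Spc25*, -0.76 ± 0.23). The median was 0.43, in Pxr-/- mice it was 0.24 with 0 called (limma), and *Pbk* and *Racgap1* were lower in Pxr-/- PCN than in WT PCN. Of 23 measured other replication genes, 1 rose (*Chaf1b*, a chromatin assembly factor, 0.81 ± 0.20) and 1 fell, *Mcm10*, by 1.02 in WT and 0.65 in Pxr-/- mice. The *Mcm10* probe had a mean log2 signal of 13.85 in WT CONT, and whether it reads *Mcm10* alone was not tested. Whether the *Spc25* probe reads *Spc25* alone was also not tested.

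Of 14 other G1 cyclins, CDKs and E2Fs, 1 rose in WT mice, the repressor *E2f7* (0.82 ± 0.25, adjusted p = 0.0192). Of 11 CDK inhibitors and pocket proteins, which hold cells back from S phase, 1 rose, *Cdkn1a*, which encodes p21 (1.14 ± 0.37, adjusted p = 0.0275). In Pxr-/- mice none of these 25 was called, with *E2f7* at 0.20 and *Cdkn1a* at 0.58.

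Markers of other liver cells were read beside these results. Of 8 Kupffer cell and macrophage, 7 lymphocyte and 7 endothelial markers measured, 0 were called after PCN in either genotype (limma), with medians between -0.21 and 0.23. Their summed log2 signals overlapped between WT CONT and WT PCN (15.11 to 16.05 beside 14.85 to 16.62 for Kupffer cells, 12.38 to 13.31 beside 12.55 to 12.79 for lymphocytes, and 13.90 to 14.47 beside 13.69 to 14.15 for endothelial cells). *Cd8a* was above background on no array. Of 7 stellate cell markers, the collagen genes *Col1a1* (3.17 in WT and 1.96 in Pxr-/- mice) and *Col3a1* (2.18 and 1.22) rose in both, while *Des*, *Lrat*, *Reln*, *Pdgfrb* and *Dcn* were not called, and the summed signal was 14.37 to 15.13 in WT CONT and 14.80 to 15.26 in WT PCN. Of 5 cholangiocyte markers measured, *Sox9* rose in WT mice (0.76, adjusted p = 0.0109), the median was 0.73 in WT and 0.62 in Pxr-/- mice, and the summed signal was 10.54 to 12.21 in WT CONT, 11.70 to 12.97 in WT PCN, 10.83 to 11.72 in Pxr-/- CONT and 11.15 to 12.52 in Pxr-/- PCN. Of 4 erythroid markers measured, 0 were called. Whether cells of these kinds carry any of the cell cycle signal was not tested.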

How the data were processed

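Total liver RNA of 23 mice was labelled with Cy3 and hybridised to Agilent 1-colour arrays. Per the submitters' processing notes, scanner files came from Agilent Feature Extraction 10.10.1.1, and limma was used. The deposited scanner files hold the linear intensity of each spot before any normalization between arrays. Per the study's methods, the authors also deposited log2 values of the median signal after CrossNorm normalization and a washing batch correction (32574 probes, column medians 7.54 to 8.01), used as an alternative.

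Here, control spots were left out, 2225 spot values flagged as outliers were set to missing, log2 median signals were averaged per probe, a probe stayed in if any group had it well above background in over 50% of its mice (32087 of 56605), and arrays were quantile normalized. One limma fit (limma 3.58.1, R 4.3.3, package data.table, version 1.17.8) over all arrays had a term per group and a term for washing batch (18 residual degrees of freedom). P-values were Benjamini-Hochberg adjusted over all kept probes. Calls required an adjusted p no higher than 0.05 plus a fold change over 1.5. Levels are log2 signals after quantile normalization, changes are fitted log2 differences with their SE, and because of the batch term they can differ slightly from differences of group means. A probe above background on no array of a group has only a bound there. The fit was also run on simulated data with independent noise per probe. These data held no batch effect and no outlying mouse, so that run does not bear on either. The number of arrays limits the precision, and no 2 arrays held identical values. Mice are separate animals per the labels. Probe positions are those of the array files (mm9), and promoters from RefSeq (GRCm38.p6); no position was carried from one build to the other.

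Genes given mouse by mouse were 10 anchors (*Ccnd1*, *Ccne1*, *E2f1*, *Mcm5*, *Pcna*, *Rrm2*, *Cdk1*, *Ccnb1*, *Mki67*, *Foxm1*) and, by class and direction, the 3 called genes with the largest change in WT mice, in Pxr-/- mice and between genotypes. Other cycle genes were named where called, up to 4 per list and direction. The genes and lists were chosen with earlier results of these data known. Alternatives covered the signal, background correction, normalization, filter, batch, slide, replicate number, probe rule and each mouse left out.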

Additional observations from a re-analysis of the deposited data

Results flagged for a closer look

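In 84 groups of values looked at (18 genes and 3 class medians in 4 groups), a mouse stood apart from its group in 4. By the rule used, chance alone would flag about 1 in 20 groups of normal values. The 84 groups share mice and related genes, so this share cannot tell whether chance gave the 4. *Mcm5* was at 6.32 in Pxr-/- CONT replicate 1, below the 6.95 of the next mouse, and *Cdk1* was at 5.08 in the same mouse, below the next at 5.46. *Pcna* was at 11.77 in WT PCN replicate 4, above the next at 11.40. The median of the G1/S genes was -0.29 in Pxr-/- CONT replicate 6, below the next at -0.09 (log2 signal minus the WT CONT mean). No cause was tested.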

How the results depend on the processing

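In WT mice the count of 27 called genes ran from 19 to 29 with each mouse left out, and in the other settings it differed by more than 1.5 times only within washing batch 2, where 1 gene was called, lower. Of the 27, 18 were called in all 23 leave-one-out fits, as were 2 of the 7 in Pxr-/- mice. Medians that moved by more than the spread between mice were, with the processed signal, 1.01 (all 55 cell cycle genes) and 1.57 (mitotic) in WT and 0.98 (mitotic) in Pxr-/- mice, with the deposited values 0.19 (G1/S, WT), within batch 1 -0.0086 (G1/S, Pxr-/-), and within batch 2 0.046 (replication, WT), 0.55 (mitotic, WT) and 0.39 (G1/S, Pxr-/-).

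The 7 genes called in Pxr-/- mice became 4 with normexp background correction, 3 without a filter, 0 within batch 1, 0 within batch 2, 3 with slide as a block, 12 with only the groups compared and 16 without both WT PCN 4 and WT CONT 2, and ran from 2 to 12 with 1 mouse left out. The 6 genes called between the PCN groups became 2 with the processed signal, 29 with the deposited values (median of all genes shifted by -0.19), 1 without a filter, 0 within either batch, 0 with slide as a block, 0 with only the groups compared and 2 without both mice, and ran from 1 to 21 with 1 mouse left out. The difference of PCN effects ran from 0 to 1 called gene with 1 mouse left out and was 1 within batch 2, as was the count between control mice. With the deposited values the share of called genes that were higher went from 62.4% to 73.6% in Pxr-/- mice, from 76.9% to 87.7% for the difference of PCN effects and from 73.8% to 45% between control mice (median of all genes shifted by -0.11). The interaction could not be fitted with only the groups compared. Single batches hold fewer mice, and otherwise the cause of these changes was not tested.

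With the replicate number as a block (replicate block), 26 genes were called in WT mice, 10 in Pxr-/- mice, 1 between control mice and 11 between PCN mice. Of 33 pairs of the same number, 11 had deviations correlated above 0.1 (median 0.07, lowest -0.25, highest 0.49). Of 165 pairs of different numbers, 35 did (median -0.02, lowest -0.37, highest 0.39). These values cannot tell whether the numbers pair the samples, and the reported fit took no pairing into account.

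Among the 18 genes given mouse by mouse, the change after PCN in WT or Pxr-/- mice kept its side of the threshold in 1232 of the values under the alternatives, lost it in 92 and gained it in 8, and no call reversed. Dim probes limit the result for 13 genes not well above background on all arrays.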
